A study of Bos taurus with 9 samples.

Results

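A set of 10 genes of smooth muscle contraction and its filaments were followed through rectal biopsies of 5 super-shedders (SS) and 4 non-shedders (NS) of *E. coli* O157. They are DES, ACTG2, MYH11, CNN1, SMTN, SYNM, ACTA2, TAGLN, LMOD1 and SYNPO2, chosen by name and looked up by Ensembl identifier among the 24616 genes of the deposited table. All 10 had an identifier and all 10 were above the filter on low values, at least 0.5 CPM (counts per 1000000 reads on genes) in at least 4 steers, which left 15410 genes for testing. The SS were steers 274, 287, 294, 299 and 310, British x Continental feedlot cattle found shedding above 10000 CFU per gram of feces. The NS were steers 108, 152, 165 and 242, pen-mates that tested negative, and no treatment is given for either group. The phenotype was scored before slaughter. At slaughter a count above that limit is given for SS 310 only. The other SS are given as positive on the day before, without a count. The biopsies came from the rectal wall, 3 to 5 cm on the proximal side of the rectal-anal junction (RAJ), and were powdered whole, and RNA of each steer was sequenced as 1 library. The sources used here do not give the ages of the steers.

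Smooth muscle cells shorten when myosin II, switched on by phosphorylation of its light chain, pulls on actin filaments that are anchored in dense bodies and in plaques at the cell membrane. Desmin and related intermediate filaments tie these anchors together, and calponin, transgelin, leiomodin and caldesmon bind the thin filaments. The rectum holds such cells in the circular and longitudinal muscle coats, in the thin muscularis mucosae and in the walls of vessels. The enteric gamma actin ACTG2 is the main actin of gut muscle, whereas ACTA2 and TAGLN are also high in vascular smooth muscle, in pericytes and in activated fibroblasts.

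The sources give no account of how much of the muscle layers each biopsy held. In whole tissue, fewer cells of a type and less RNA per cell cannot be told apart. The recovered reads on genes ranged from 5412523 in SS 274, the shallowest library and also the one with the lowest mapped share in the study's sequencing summary, to 12278503 in NS 108, and the 10 genes were backed by 37 reads at the least (ACTG2 in SS 274) and 211719 at the most (MYH11 in SS 294). CPM are not scaled by gene length, so levels were compared between steers, and a difference or share between genes is read only for its change from library to library. A pair of libraries stood apart in several genes, SS 274 at the low end and SS 294 at the high end, and results that rest on them are also given without them. Coordinates and sequences were not analysed here.

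MYH11 (ENSBTAG00000015988) encodes the smooth muscle myosin heavy chain, the motor of contraction. In NS it was at 4597.5, 4331.5, 7021 and 1167 CPM in steers 108, 152, 165 and 242. In SS it was at 89.1, 853, 28258, 12755 and 2084 CPM in steers 274, 287, 294, 299 and 310. The 4 NS all lay inside the interval spanned by SS, with 3 SS below the NS median and 2 above every NS.

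The enteric actin ACTG2 (ENSBTAG00000015441) had the widest range of the 10 genes. It was at 1267, 1432, 1710.4 and 251 CPM in NS 108, 152, 165 and 242, and at 6.84, 149, 5409.8, 2948 and 301 CPM in SS 274, 287, 294, 299 and 310. Its highest and lowest libraries, SS 294 and SS 274, differed 791-fold (95% counting interval 574 to 1124, which covers counting error only). Reads of ACTG2 could be shared with the other actins, which are almost identical in coding sequence, and the sources used here do not say how such reads were counted.

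DES (ENSBTAG00000005353) encodes desmin, the intermediate filament of muscle cells. Its NS values were 1660.5, 1266, 2196 and 381 CPM in steers 108, 152, 165 and 242, and its SS values 27.9, 202.5, 6775, 4234 and 536 CPM in steers 274, 287, 294, 299 and 310. Steers 294 and 299 were again above every NS, and steers 274 and 287 below every NS. SYNM (ENSBTAG00000011752) encodes synemin, a large intermediate filament protein that assembles with desmin. Its NS values were 672, 615, 1027 and 160.1 CPM, and the SS values, in the same order of steers, were 56.4, 76.7, 4755, 2361 and 226 CPM.

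Of the thin filament genes, CNN1 (ENSBTAG00000011207), the calponin that binds actin and slows myosin, was at 540.3, 669, 987 and 157 CPM in NS, against 9.61, 87.5, 2785, 1402 and 191 CPM in SS, in the order of steers used above. TAGLN (ENSBTAG00000007196), which encodes the actin-binding protein transgelin, was at 864, 945, 1330.3 and 271 CPM in NS, against 91.3, 193, 3415, 2102.5 and 429 CPM in SS. LMOD1 (ENSBTAG00000021576), a leiomodin that starts new actin filaments in smooth muscle, was at 62.5, 68.9, 118 and 25.3 CPM in NS, against 8.68, 14.7, 423.5, 239.7 and 56.9 CPM in SS. For all 3 genes NS 242 was the lowest NS, and the SS on either side of it were the same steers, 310 above and 287 below.

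ACTA2 (ENSBTAG00000014614), the alpha actin of smooth muscle, had the narrowest range of the 10 genes. It was at 492, 969, 896 and 268 CPM in NS 108, 152, 165 and 242, and it was at 81.5, 220.4, 1587, 1192 and 502 CPM in SS 274, 287, 294, 299 and 310. Its highest library was 19.5-fold above its lowest (95% counting interval 17.7 to 21.5). SMTN (ENSBTAG00000003100), an actin-binding protein named smoothelin that marks contractile smooth muscle, was at 125, 121, 234 and 46.5 CPM in NS, against 23.5, 42.0, 601, 394 and 93.2 CPM in SS. SYNPO2 (ENSBTAG00000006434), a synaptopodin found at actin anchors of muscle, was at 281, 273, 442 and 102 CPM in NS, against 58.2, 57.2, 1614, 914 and 128 CPM in SS.

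**Figure D1:**
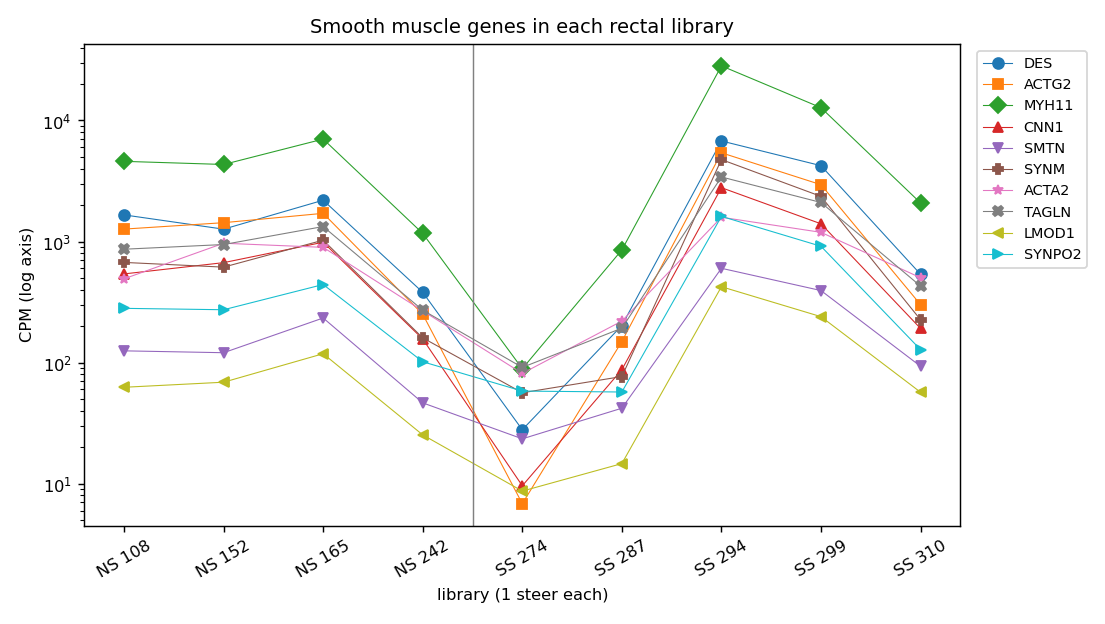
CPM on a log axis of the 10 genes in each library, 4 NS to the left of the grey line and 5 SS to the right; thin lines join the values of a gene and have no order in time. SS 294 is the highest library for all 10 genes and SS 274 the lowest for 9, with ACTG2 falling to 6.84 CPM there.

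The libraries stood in nearly one order for every gene. SS 294 was the highest and SS 299 second in 10 of 10 genes, and NS 165 came next in 9, with ACTA2 the exception. NS 242 was seventh in 10 of 10. SS 287 was eighth and SS 274 ninth in 9, and SYNPO2 had the last pair the other way round, at 57.2 and 58.2 CPM. Their ratio for SYNPO2 had a counting interval of 0.888 to 1.17, so these neighbours did not differ beyond counting error. Between the first and second libraries, SS 294 was above SS 299 by 1.33-fold for ACTA2 (95% counting interval 1.30 to 1.37) up to 2.22-fold for MYH11 (2.20 to 2.23). With 1 library per steer there was no technical replicate, so only counting error could be set against such gaps between steers.

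Together the 10 genes took 1.06%, 1.07%, 1.60% and 0.283% of the reads on genes in NS 108, 152, 165 and 242. They took 0.0453%, 0.190%, 5.56%, 2.85% and 0.455% in SS 274, 287, 294, 299 and 310. MYH11 alone was 40.5% to 50.8% of these reads in 8 libraries and 19.7% in SS 274. CPM are shares of a fixed total, so in SS 294 these 10 genes left 5.56% less of it to all other genes.

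The spread over the 9 libraries was wide next to that of other genes. The SD of log2(CPM + 0.5) was 2.90 for ACTG2, 2.46 for CNN1, 2.45 for MYH11, 2.44 for DES, 2.17 for SYNM, 1.79 for LMOD1, 1.70 for TAGLN, 1.69 for SYNPO2, 1.54 for SMTN and 1.37 for ACTA2. The median SD of all genes tested was 0.50, and the 10 genes stood between percentile 93.1 (ACTA2) and 99.8 (ACTG2). The 9 epithelial genes examined beside them had SDs of 1.96 (CDH1) to 2.53 (KRT19), at percentiles 97.9 to 99.6, so a wide spread was not particular to the muscle genes. Highest over lowest CPM ran from 19.5 for ACTA2 through 84.4 for SYNM, 243 for DES, 290 for CNN1 and 317 for MYH11 to 791 for ACTG2. The SD of SS was above that of NS for 10 of 10 genes, 1.76 to 3.80 against 0.86 to 1.28, and the same held for 70.9% of all genes tested.

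The design compared SS with NS, and 0 of the 10 genes passed the test between them. In limma on log2(CPM + 0.5), 0 were called at an adjusted p under 0.05 and an absolute log2 fold change over 1, where 0% of all genes tested were called, and 0 were called by DESeq2 on the recovered reads, where 0.123% were. At an unadjusted p under 0.05, 0 of the 10 passed in limma, edgeR and DESeq2, against 3.96%, 3.87% and 5.82% of all genes tested. In limma these were 0.357% that were higher and 3.6% that were lower in SS. The log2 fold changes of SS over NS ran from -1.42 for ACTG2 (standard error 1.72, adjusted p = 0.936) to 0.05 for SMTN (standard error 0.95, adjusted p = 0.995). Exact permutation tests on the 126 divisions of the steers, on both sides, gave p between 0.556 (ACTG2) and 1 (LMOD1). Such a test on these steers can give a p as low as 0.00794, as it did for MYH11 minus CNN1. With standard errors of 0.84 (ACTA2) to 1.72 on the log2 scale, a shift of several-fold in either direction was not detectable with these steers.

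**Figure D2:**
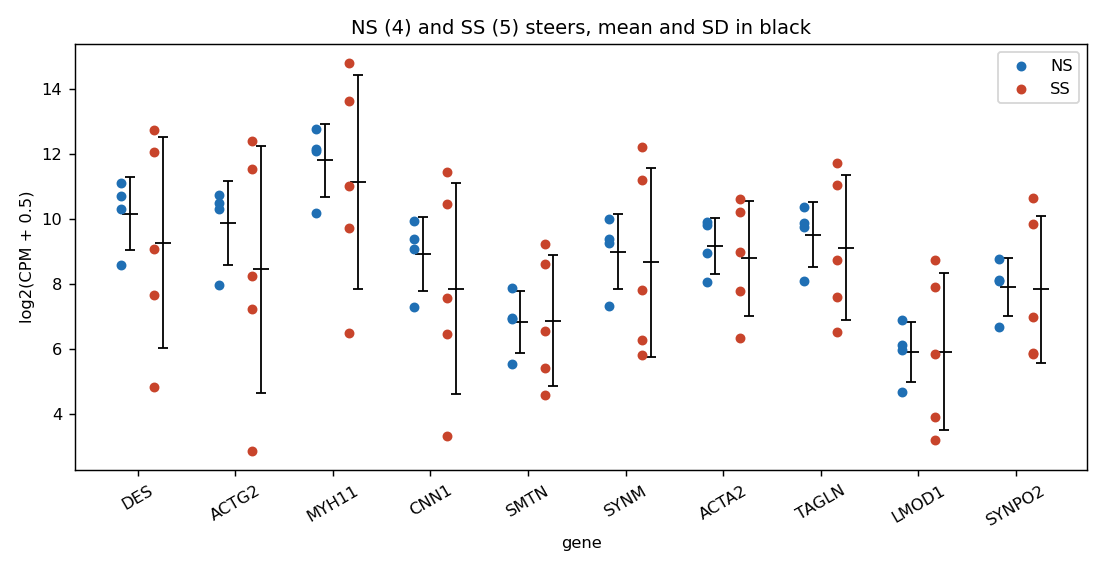
log2(CPM + 0.5) of the 10 genes, blue points for the 4 NS and red points for the 5 SS, with the mean and SD of each group in black. For each gene the red points reach above and below all blue points, and the SD of SS is the larger one.

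Which group was higher depended on the measure. The mean CPM of SS was above that of NS for 10 of 10 genes (39.4% of all genes tested), and the median CPM of SS was below that of NS for 10 of 10 (63.6%). For MYH11 the means were 8808 ± 12025 CPM in SS and 4279 ± 2402 CPM in NS (SD, n = 5 and 4), and the medians were 2084 and 4464 CPM. For DES the means were 2355 ± 3018 and 1376 ± 765 CPM (SD, n = 5 and 4), and the medians 536.5 and 1463 CPM. On the log2 scale 8 genes were lower and 2 higher in SS, with a median of -0.39, and the median of all genes tested was -0.13 as deposited, -0.01 after TMM scaling and 0.01 after median-of-ratios scaling. SYNPO2 turned from -0.08 to 0.05 and 0.07 under these scalings, whereas ACTG2, CNN1 and DES were below 0 under each. edgeR and DESeq2, which compare means of counts, put all 10 genes higher in SS, with a median log2 fold change of 0.88 and 0.92. Without SS 274 the median was 0.32 in limma, and without SS 294 it was -1.13. Without both it was -0.38, with 9 of 10 genes lower in SS, and none of the 10 genes was called in any of these cases.

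The range of SS enclosed the range of NS for 10 of 10 genes, and it did so for 40.4% of all genes tested. The groups were apart for 0 of the 10 and for 2.26% of all genes. Since the 10 genes rank the libraries nearly alike, they are not 10 independent observations on the steers.

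The genes did not move in equal steps. ACTG2, DES and MYH11 are called visceral here, and ACTA2 and TAGLN shared vascular. These are labels only, and the part of vessel walls in the reads of DES and MYH11 was not examined. Within each library, the mean log2 level of the visceral genes (ACTG2, DES and MYH11) minus that of the shared vascular genes (ACTA2 and TAGLN) was 1.71, 1.05, 1.45 and 0.84 in NS 108, 152, 165 and 242. It was -1.71, 0.52, 2.12, 1.78 and 0.58 in SS 274, 287, 294, 299 and 310. The size of such a difference depends on gene lengths, but its change from library to library does not. It was highest in the 2 libraries with the most muscle reads and lowest in the library with the fewest, and its group values were 1.26 ± 0.39 in NS and 0.66 ± 1.50 in SS (SD, n = 4 and 5), with all NS inside the range of SS. The difference of the group means, -0.60, was -0.01 without SS 274 and -0.30 without SS 274 and SS 294, and the fold changes of edgeR and DESeq2 gave 0.48 and 0.49, an alternative chosen after seeing the data.

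Among the pairs of a visceral with a shared vascular gene, the actin pair had the widest range. ACTG2 minus ACTA2 was 1.36, 0.56, 0.93 and -0.09 in NS 108, 152, 165 and 242 and -3.48, -0.56, 1.77, 1.31 and -0.74 in SS 274, 287, 294, 299 and 310, on the log2 scale. The intermediate filament against transgelin, DES minus TAGLN, was 0.94, 0.42, 0.72 and 0.49 in NS and -1.69, 0.07, 0.99, 1.01 and 0.32 in SS, in the same order of steers. Leaving out SS 274 narrowed the range of the first to between -0.74 and 1.77 and of the second to between 0.07 and 1.01. SS 287 and SS 310 were also below all 4 NS in ACTG2 minus ACTA2, and SS 294 was above all 4.

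**Figure D3:**
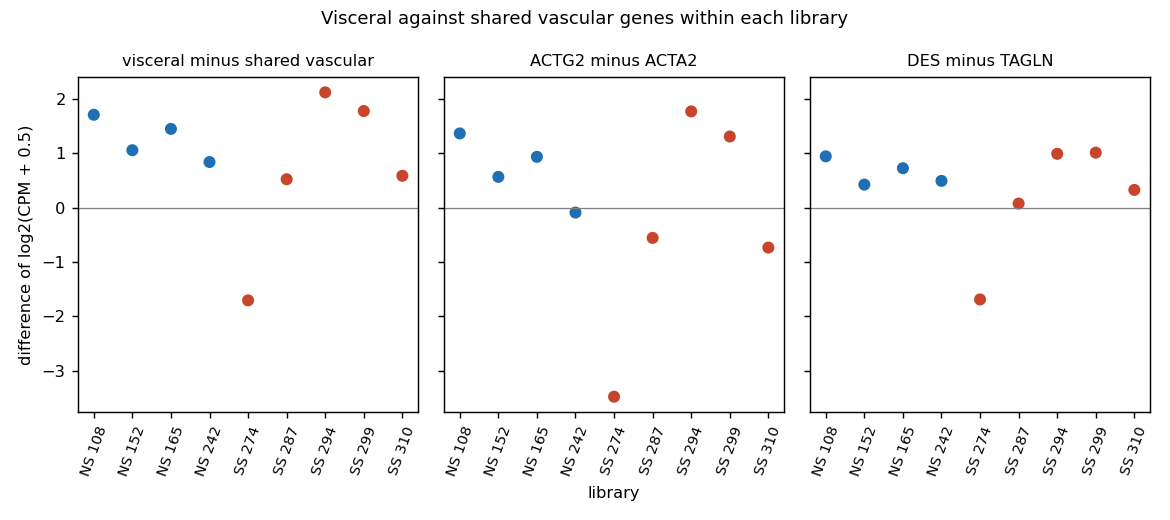
Difference of log2(CPM + 0.5) within each library, for the visceral set minus the shared vascular set, ACTG2 minus ACTA2 and DES minus TAGLN; blue points are NS and red points SS, 1 point per steer. SS 274 is the lowest in each panel, at -1.71, -3.48 and -1.69, and the other 8 steers lie closer together.

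DES and CNN1 kept near to MYH11. DES minus MYH11 stayed between -2.07 and -1.47 on the log2 scale in the 9 libraries, although MYH11 itself varied 317-fold, and CNN1 minus MYH11 stayed between -3.44 and -2.69. MYH11 minus CNN1 was 2.88 ± 0.16 in NS (SD, n = 4) and 3.28 ± 0.12 in SS (SD, n = 5), and every SS library lay above every NS library. This pair was singled out after its values were seen, so all 45 pairs among the 10 genes were then compared. The groups did not overlap in 2 of the 45, the other being SMTN minus TAGLN at -2.70 ± 0.22 in NS and -2.25 ± 0.22 in SS, beside 2.26% of all genes for single levels. By a two-sided exact permutation test 3 of the 45 pairs had an unadjusted p under 0.05 and 0 an adjusted one, the lowest adjusted p being 0.357 for both of these pairs. ACTG2 minus MYH11 was between -2.79 and -1.60 in 8 libraries and -3.61 in SS 274. ACTA2 minus MYH11 ran from -4.15 in SS 294, through -3.42 in SS 299 and -1.95 in SS 287, to -0.13 in SS 274. ACTA2 thus fell less than the myosin where muscle reads were few and rose less where they were many.

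SYNPO2, SYNM, LMOD1, SMTN and TAGLN departed from MYH11 mainly in SS 274. SYNPO2 minus MYH11 was between -4.13 and -3.51 in 8 libraries and -0.61 in SS 274. SYNM minus MYH11 was between -3.47 and -2.43 in 8 libraries and -0.66 in SS 274. For TAGLN minus MYH11 the 8 libraries were between -3.05 and -2.10, and SS 274 was at 0.04. LMOD1 minus MYH11 was -3.29 in SS 274 and between -6.19 and -5.18 elsewhere, and SMTN minus MYH11 was -1.90 in SS 274 and between -5.55 and -4.33 elsewhere.

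The 2 lowest libraries were also compared directly, which uses the same SS 274 values again. ACTG2 was 21.9-fold higher in SS 287 than in SS 274 (95% counting interval 15.8 to 31.1). MYH11 was 9.58-fold, CNN1 9.11-fold and DES 7.26-fold higher in SS 287, so ACTG2 parted from these 3 as well. The ratio was 2.70 for ACTA2, 2.11 for TAGLN, 1.79 for SMTN, 1.69 for LMOD1, 1.36 for SYNM and 0.982 for SYNPO2. ACTG2 rested on 37 reads in SS 274, CNN1 on 52 and LMOD1 on 47, so the counting intervals of these 3 are the widest.

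**Figure D4:**
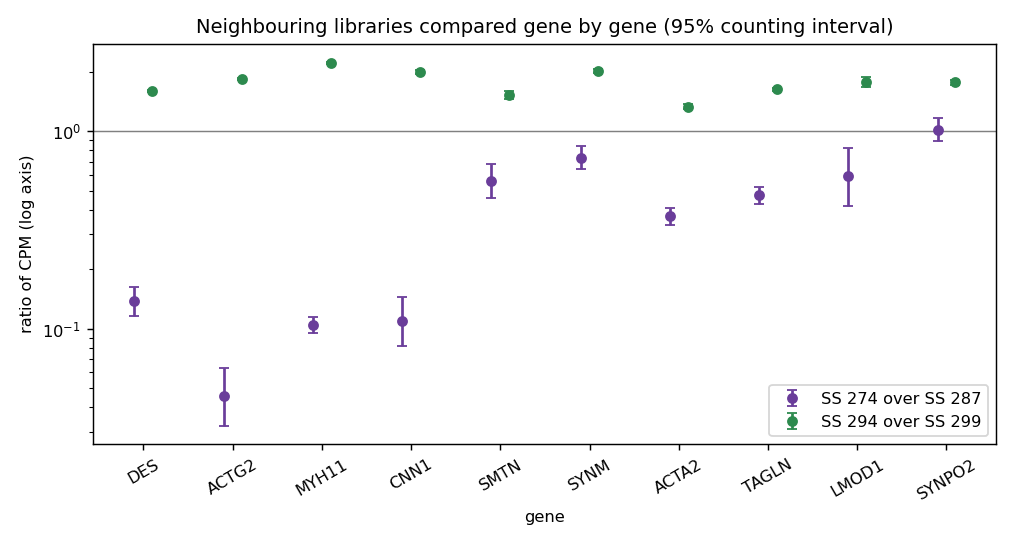
Ratio of CPM on a log axis for each of the 10 genes between the 2 lowest libraries (SS 274 over SS 287, purple) and between the 2 highest (SS 294 over SS 299, green), with 95% counting intervals as bars. The purple ratios run from 0.0458 for ACTG2 to 1.02 for SYNPO2, and the green ones from 1.33 for ACTA2 to 2.22 for MYH11.

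Markers of other cells differed between the same libraries. Of 9 listed fibroblast genes 7 had an identifier. Their summed level was highest in SS 274 at 22304 CPM and next in SS 294 at 15812 CPM. In the other 7 libraries it was 2235 to 7435 CPM. COL1A1, COL1A2, DCN, LUM and PDGFRA were each highest in SS 274. POSTN was instead lowest there, at 26.6 CPM, and COL6A1 was highest in SS 294 at 1157 CPM. The summed level of 9 epithelial genes, of 13 listed, was 62.2 CPM in SS 294, 639 CPM in NS 242, 764 CPM in SS 274 and 2669 to 7035 CPM in the other 6. Of the pericyte list only RGS5 had an identifier, and it was lowest in SS 274 at 66.5 CPM and highest in SS 287 at 946 CPM. Of the endothelial list only PECAM1 did, at 273 CPM in SS 274 and 348 CPM in SS 294 against 49.5 to 205 CPM in the others. The part of these cells in the levels of ACTA2, TAGLN, SYNM and SYNPO2 in SS 274 was not tested. The lists for striated muscle, interstitial cells of Cajal and enteric neurons and glia had 0 genes with an identifier and were not analysed here.

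Across the 9 libraries all 45 pairs of the 10 genes rose and fell together. Pearson's r of log2(CPM + 0.5) was 0.879 (ACTG2 with SYNPO2) to 0.996, with a median of 0.969, and Spearman's rank correlation was 0.90 to 1. By an exact permutation test over all pairings of the 9 libraries, 45 of 45 pairs passed 0.05 after Benjamini-Hochberg adjustment. The highest adjusted p of this test was 9.87e-04. The 10 genes were chosen with earlier results of these data known, and the share of all gene pairs that pass was not computed. Among the 10 genes the lowest r with MYH11 was 0.919 (SYNPO2). An r of at least 0.9 with MYH11 was found for 0.922% of the 15400 genes tested outside them. Without the 2 libraries farthest from the median of the first gene, r was at least 0.898. Without SS 274 and SS 294 it was at least 0.908, and without SS 274 alone, a setting chosen after seeing the data, it was 0.935 to 0.998. All genes of a library share its depth and its scaling, and after TMM and median-of-ratios scaling the lowest r was 0.870 and 0.869.

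A pair of sets could be seen in the correlations over 9 libraries, a grouping made after the values were seen, with ACTA2 in neither (its r with the others was 0.906 to 0.978). Among DES, ACTG2, MYH11 and CNN1 the 6 values of r were 0.990 to 0.996, and among SMTN, SYNM, TAGLN, LMOD1 and SYNPO2 the 10 values were 0.974 to 0.996. Between the 2 sets r was 0.879 to 0.981. Without SS 274 and SS 294 the ranges were 0.979 to 0.994, 0.968 to 0.998 and 0.917 to 0.998, and the median between the sets, 0.983, was above that of the set of 5, 0.975, so the grouping rested on these libraries.

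Other genes of the contractile pathway had been listed by role, and 35 of them had an identifier. At SS against NS, 0 of the 35 were called by limma and 0 had an unadjusted p under 0.05. Of the 7 other genes of the contractile and thin filament, 5 were lower and 2 higher in SS on the log2 scale, with a median of -0.22, and of 14 dense body and plaque genes 5 were lower and 9 higher, with a median of 0.15. TPM2, a tropomyosin that lies along the thin filament, was at -0.76 (standard error 1.22) as a log2 fold change, and the light chain MYL9 at -0.43 (standard error 0.98). TNS1, the adhesion protein tensin, had 0.59 (standard error 0.72). KCNMA1, a calcium-gated potassium channel that hyperpolarizes muscle, had 0.64 (standard error 0.63), and PDE5A, which breaks down cyclic GMP, had 0.62 (standard error 0.60). HSPB6, a small heat shock protein of muscle, had the highest value of the 35 at 1.29 (standard error 0.73, adjusted p = 0.928, limma), from 2.68 to 5.35 CPM in NS and 2.86 to 44.0 CPM in SS. With 1 steer left out these values ran from 0.10 to 1.11 for TNS1, 0.12 to 0.93 for KCNMA1, 0.20 to 0.96 for PDE5A and 0.76 to 1.70 for HSPB6, lowest without SS 294 except for KCNMA1, which was lowest without NS 242. Without both SS 274 and SS 294 they were 0.45 for HSPB6, 0.23 for KCNMA1, 0.17 for PDE5A and -0.20 for TNS1. The values of edgeR and DESeq2 were 2.19 and 2.24 for HSPB6, 1.32 and 1.36 for TNS1, 0.99 and 1.02 for PDE5A and 0.83 and 0.87 for KCNMA1.

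Against MYH11 as the reference, the pathway fell into genes that followed it and genes that did not. Of the 35 genes, 16 had a positive r that passed 0.05 after adjustment over the 58 listed genes compared (exact permutation test), and 0 had a negative one. An r of at least 0.9 with MYH11 was found for 8 of the 35 and for 0.922% of all 15400 genes tested outside the 10. TPM2 followed it with r = 0.985 (Spearman = 0.983), and PLN, which encodes phospholamban, an inhibitor of the calcium pump of the sarcoplasmic reticulum, with r = 0.975 (Spearman = 0.983). PDLIM3, a LIM protein of actin anchors, had r = 0.974, the light chain MYL9 0.972, TPM1 0.971, the plaque protein PGM5 0.966 and filamin A (FLNA) 0.920. The highest adjusted exact p of these 7 genes was 0.00244, for FLNA, and without SS 274 and SS 294 their r lay between 0.955 (PLN) and 0.993 (TPM1).

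Phospholamban and tropomyosin showed the pattern library by library. PLN was at 97.0, 129.7, 240.5 and 61.5 CPM in NS 108, 152, 165 and 242, and it was at 13.5, 46.1, 749, 339 and 64.8 CPM in SS 274, 287, 294, 299 and 310. TPM2 was at 734, 857, 1291 and 238 CPM in NS, against 40.8, 122, 3292, 1908 and 287 CPM in SS, in the same order. Both had SS 294 as the highest and SS 274 as the lowest library, like 9 of the 10 genes.

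Without SS 274 and SS 294 the r with MYH11 was higher for 27 of the 35 genes and lower for 8, and it was higher for 8354 of the 15400 genes. The number with an r of at least 0.9 went from 8 to 16 of the 35 and from 142 to 258 of the 15400. CALD1, the caldesmon that holds back myosin on the thin filament, had r = 0.763 over the 9 libraries (Spearman = 0.883, adjusted exact p = 0.0554) and 0.982 without these libraries. HSPB8 went from 0.597 to 0.971, PDE5A from 0.644 to 0.948 and KCNMA1 from 0.584 to 0.913 on the same omission. MYL6, a light chain that non-muscle cells also use, went from 0.902 to 0.795, the adhesion protein ACTN1 from 0.889 to 0.716 and the calcium channel ITPR1 from 0.771 to 0.670. PDE5A was at 217 CPM in SS 274, above the 105 CPM of SS 287 and the 79.0 CPM of NS 242, whereas MYH11 was lower in SS 274 than in either. CALD1 was likewise at 260 CPM in SS 274 against 118 CPM in SS 287.

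Actins and a tropomyosin of non-muscle cells did not pass the same test. ACTB and ACTG1, the cytoplasmic actins, had r of 0.51 and -0.13. ACTG1 ranged from 1084 CPM in SS 310 to 1927 CPM in NS 242, a 1.78-fold range over libraries in which ACTG2 changed 791-fold. Between SS and NS its log2 fold change was -0.41 (standard error 0.23, adjusted p = 0.928 in limma, exact permutation p = 0.0952). The tropomyosin TPM4, which was also listed for smooth muscle but is broadly expressed, had r = 0.22.

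Of the 23 listed genes outside the smooth muscle lists, 1 followed MYH11 after adjustment. It was POSTN, the matrix protein periostin that was listed for fibroblasts, with r = 0.950 (Spearman = 0.950, adjusted exact p = 0.00105) and 0.863 without SS 274 and SS 294. POSTN was at 26.6 CPM in SS 274, where the fibroblast genes COL1A1 and LUM were at their highest. The 7 fibroblast genes had a median r of -0.20 with MYH11 over the 9 libraries and of 0.57 without SS 274 and SS 294. COL1A1 went from -0.21 to 0.15, LUM from -0.20 to 0.61 and COL6A1 from 0.38 to 0.87. Epithelial genes had r between -0.29 and 0.01, and between 0.04 and 0.25 without these libraries.

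**Figure D5:**
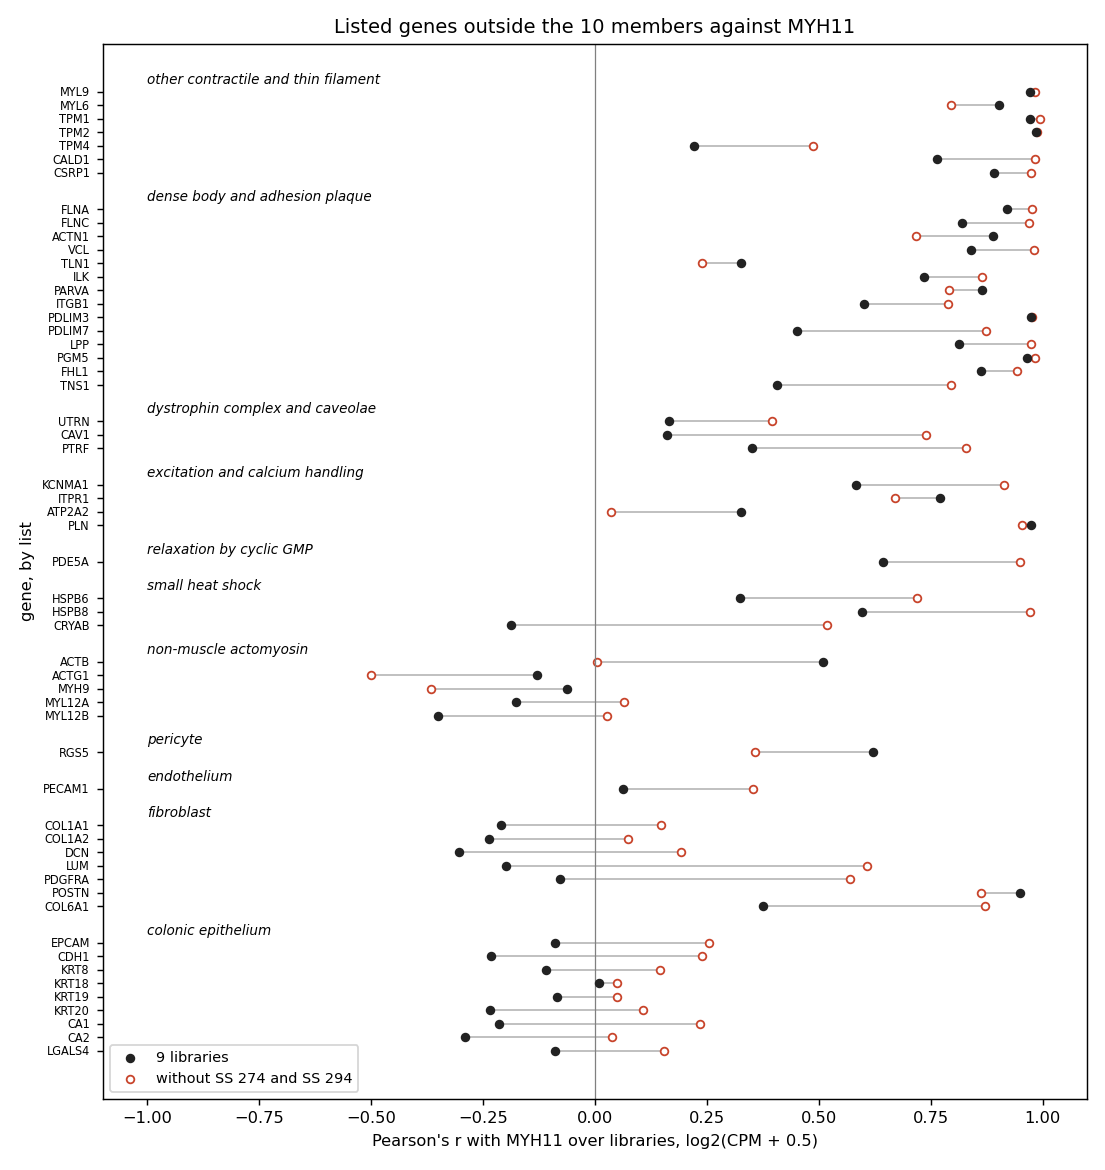
Pearson's r with MYH11 over libraries, on log2(CPM + 0.5), for listed genes outside the 10, grouped by list; filled points use 9 libraries and open points leave out SS 274 and SS 294. TPM2, PLN and TPM1 lie near 1 in both cases, HSPB8, PDE5A and KCNMA1 move toward 1 without these steers, as do the fibroblast genes COL6A1, LUM and PDGFRA, and the epithelial genes lie between -0.29 and 0.01 as filled points and between 0.04 and 0.25 as open ones.

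Among 2033 genes with a name and a mean of at least 5 CPM, likeness to the mean of the 10 genes was ranked by r over the 9 libraries, as a description. The 10 most alike were TPM2 (r = 0.996), PDLIM3 (0.993), TPM1 (0.993), MYL9 (0.992), PGM5 (0.990), PLN (0.983), FBXO32 (0.979), RASSF3 (0.965), YBX1 (0.962) and FLNA (0.959). The median r of the genes compared was -0.04. FBXO32, the muscle ubiquitin ligase atrogin, was at 21.4 to 75.1 CPM in NS, against 9.61, 12.2, 252, 168 and 32.5 CPM in SS 274, 287, 294, 299 and 310. YBX1, a protein that binds RNA and DNA, had the same lowest and highest libraries over a far smaller range, 277 CPM in SS 274 to 592 CPM in SS 294. The 5 least alike were RRAS2 (-0.897), DBI (-0.886), SOD1 (-0.873), WWP1 (-0.872) and MARCKS (-0.871). Another 29 genes without a name had an r above that of FLNA and are not named here.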

How the data were processed

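The authors mapped stranded, rRNA-depleted paired reads to UMD3.1 with TopHat2. They deposited CPM (counts scaled to the library total) per Ensembl gene, and the submitters' processing notes also name HTSeq and edgeR, without version. Nothing read here says how counts became CPM. CPM were whole multiples of 1 read (100% within 0.01 reads), so reads were recovered from 5412523 (SS 274) to 12278503 (NS 108) per library. Counting intervals are 95% and exact, and cover counting error only. Since CPM were deposited, the Cuffdiff test of the study was replaced by limma 3.58.1 with an intensity trend on log2(CPM + 0.5), with Benjamini-Hochberg adjustment. This scale understates changes of low genes. edgeR 4.0.16 and DESeq2 1.42.0 were run on the recovered reads, and both were tested on simulated data, as was limma. R 4.3.3, Python 3.11.15, scipy 1.17.1 and matplotlib 3.10.9 were used. Groups came from sample titles. No batch is given. Gene names, upper-cased, were available for 2051 identifiers from the supplementary tables of the study, so a listed gene without a name was not analysed here. The 10 genes, lists and tests were chosen with earlier results of these data known. Named from other lists were up to 4 genes each, from the 2 highest and 2 lowest by log2 difference, the 10 genes most like and 5 least like the mean of the members, and others chosen after their values were seen where a sentence needs them. Other pseudocounts, filters, scalings, tests, weights and the omission of steers were tried. A set of 3 listed genes is not reported here.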

Additional observations from a re-analysis of the deposited data

Results flagged for a closer look

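In groups of 4 NS and 5 SS, a steer was picked out where its gap to the nearest other steer was an unusually large part of the range of its group (Dixon's ratio at the 95% level). Chance flags about 1 in 20 groups, and 4 of 68 groups examined were past the limit. ACTG2 in NS 242 was at 7.97 on the log2 scale against 10.31 to 10.74 in the other NS, a gap of 0.844 of the range. SYNPO2 minus MYH11 was -0.61 in SS 274 against -4.13 to -3.80 in the other SS (0.907 of the range), and -3.51 in NS 242 against -4.03 to -3.98 in the other NS (0.908). ACTG1 was at 10.89 in SS 287 against 10.08 to 10.22 in the other SS (0.825). These steers also had the lowest reads on the 10 smooth muscle genes in their groups, apart from SS 287, which was second from the bottom. For ACTG2 and for SYNPO2 minus MYH11 this was partly built in, since these genes are among the 10. The causes were not tested.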

How the results depend on the processing

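The 0 calls among the 10 genes and among 35 other smooth muscle genes held under all 20 alternatives of the tests, and the count of 45 correlated pairs under all 14 of its own. The group difference in visceral minus vascular level, -0.60, ran with 1 steer left out from -0.97 without SS 294 to -0.011 without SS 274, and was -0.30 without both, -1.03 from ACTG2 minus ACTA2 alone, -0.50 from DES minus TAGLN alone, 0.48 in edgeR and 0.49 in DESeq2. The signs of the log2 differences of SS over NS did not hold. Their median of -0.39 became 0.88 in edgeR and 0.92 in DESeq2, and ran from -1.13 to 0.32 with 1 steer left out, positive without SS 274 and lowest without SS 294, and it was -0.38 without both. The difference turned positive in edgeR and DESeq2 for DES (0.86 and 0.90), ACTG2 (0.68 and 0.72), MYH11 (1.14 and 1.18), CNN1 (0.69 and 0.74), SYNM (1.37 and 1.41), ACTA2 (0.20 and 0.23), TAGLN (0.63 and 0.67), SYNPO2 (1.11 and 1.15), TPM2 (0.62 and 0.66) and MYL9 (0.66 and 0.70). SYNPO2 was 0.048 with TMM and 0.072 with median-of-ratios scaling. With array quality weights SMTN was -0.17 and LMOD1 -0.086, LMOD1 was -0.011 with a pseudocount of 0.1, and without SS 274 and SS 294 LMOD1 was -0.028 and TNS1 -0.20. With 1 steer left out the differences ran from -1.77 to 0.21 for DES, -2.41 to -0.03 for ACTG2, -1.58 to 0.49 for MYH11, -1.97 to 0.058 for CNN1, -0.54 to 0.62 for SMTN, -1.22 to 0.38 for SYNM, -0.85 to 0.22 for ACTA2, -1.05 to 0.25 for TAGLN, -0.70 to 0.68 for LMOD1, -0.78 to 0.42 for SYNPO2, -1.53 to 0.047 for TPM2 and -1.07 to 0.17 for MYL9. The lower end of each range came without SS 294. The median SD over libraries went from 1.98 to 1.38 without SS 274 and SS 294. edgeR and DESeq2 compare mean counts and limma mean logs, and beyond that the cause was not tested. No paired analysis was possible because the numbers of the steers are not shared between groups. Depth limits ACTG2, LMOD1 and CNN1 most, in SS 274.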
